A study of Mus musculus with 6 samples.

Results

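The oxidative phosphorylation subunits described here are the nuclear-encoded proteins of respiratory chain complexes I to V. They were chosen by gene symbol: Nduf with a, b, c, s or v and a digit for complex I, Sdha to Sdhd for complex II, Uqcr symbols and Cyc1 for complex III, Cox4 to Cox8 for complex IV and Atp5 symbols for complex V. Assembly factors, such as the Ndufaf genes and Atp5sl, were left out. Of 26814 gene symbols 84 matched, and 82 of these were among the 15009 genes that were tested. A tested gene had 1 CPM (counts scaled to the size of the library) or more in 3 or more libraries. Complex I had 37 tested subunits, complex II 4, complex III 9, complex IV 16 and complex V 16. The subunits that were not tested were Cox8c, with at most 1 count in any library, and Atp5l2, with at most 3.

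Oxidative phosphorylation is the mitochondrial process that makes most of the ATP of a resting cell. Complexes I and II pass electrons from NADH and succinate to ubiquinone, complex III passes them on to cytochrome c, complex IV (cytochrome c oxidase) reduces oxygen, and complex V (ATP synthase) uses the resulting proton gradient to make ATP. Skeletal muscle is rich in these complexes and, in cytochrome c oxidase, replaces some ubiquitous subunits with muscle isoforms, whereas the outer layers of the epidermis hold few mitochondria.

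The study asked how loss of Gtf2ird1, a transcription factor gene of the Williams-Beuren syndrome region, changes the transcripts of the lip, where the knockout mice show overgrown tissue. RNA was sequenced from the top lip of 3 mice labelled wild type (WT1 to WT3) and 3 mice labelled Gtf2ird1 KO (KO1 to KO3), all adult females aged 2 to 6 months on the C57BL/6J background, with 1 library per mouse. The KO mice carried the targeted allele Gtf2ird1 tm1Hrd of a single line, in every cell, and the samples were whole dissected tissue with skin, muscle, fat and vessels. In such bulk tissue, fewer cells of a type and less RNA per cell cannot be told apart.

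The libraries held 20164081 to 29491767 counts, and a count of 3, the limit that a count of 0 allows, equalled 0.0986 to 0.154 CPM, which covers counting error only. Gtf2ird1 itself was higher in the libraries labelled KO, at 144 to 166 CPM against 70.2 to 78.2 CPM in those labelled WT (log2 fold change 1.11, standard error 0.13, adjusted p = 0.0018 in edgeR's quasi-likelihood test), so that every direction here is that of the label. The study's methods state that genotypes were checked again on tail biopsies. Over all tested genes, an adjusted p under 0.05 was reached by 314 (2.09%) that were lower and 657 (4.38%) that were higher in KO. Without KO3, 2395 genes (16.2%) were lower and 2496 (16.9%) higher. In the summed level of the subunits, KO3 stood closer to the WT libraries than KO1 and KO2 did.

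The subunits had lower median levels in the libraries labelled KO, but single subunits rarely passed the test. The log2 fold change was below 0 in 78 of the 82 subunits, against 52% of all tested genes. Its median over the subunits was -0.38, a level 23.3% lower, against -0.02 over all tested genes. With adjustment over all 15009 genes in edgeR's quasi-likelihood test, 1 subunit fell (Cox7a1) and 0 rose, against 2.09% and 4.38% of all tested genes. At an unadjusted p under 0.05, 31 subunits were lower and 0 higher, where 16% and 13.5% of all tested genes were. edgeR's exact test, DESeq2 and limma-voom called 4, 3 and 1 subunits lower and 0 higher, against 7.15%, 5.87% and 2.21% of all tested genes lower and 7.76%, 9.62% and 4.08% higher. At an adjusted p under 0.1, 7 subunits were lower and 0 higher, against 8.53% and 8.32% of all tested genes.

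**Figure D1:**
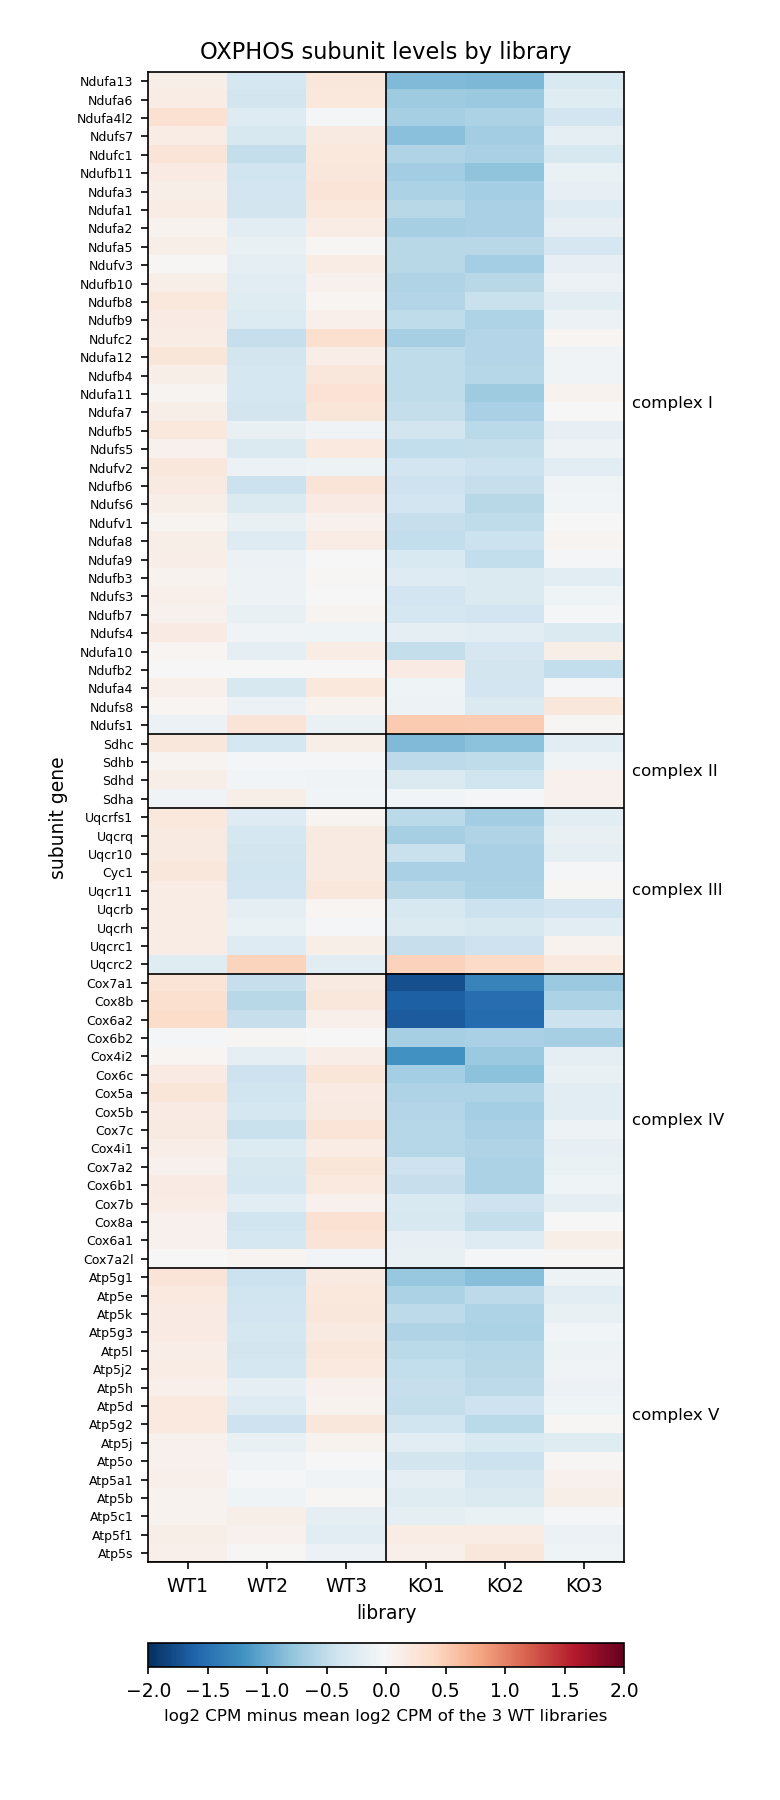
Level of 81 of the 82 subunits (rows, grouped by complex and ordered by log2 fold change) in the 6 libraries (columns), as log2 CPM minus the mean log2 CPM of the 3 WT libraries. Blue is lower and red higher; most rows are blue in KO1 and KO2, paler in KO3 and slightly blue in WT2, and Ndufs1 and Uqcrc2 run the other way.

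The libraries ordered themselves alike across most subunits. The summed level of the 82 subunits was 12664, 10124 and 12332 CPM in WT1 to WT3 and 8814, 8490 and 11176 CPM in KO1 to KO3. KO1 and KO2 were therefore below every WT library, and KO3 was above WT2, so that the genotypes overlapped. WT2 was the lowest WT library in 71 of 82 subunits, against 39.3% of all tested genes. KO3 was the highest KO library in 73 of 82, against 44.5% of all tested genes, and it lay above WT2 in 60 of 82, against 45.6% of all tested genes. As a share of each library, the subunits made up 1.17% ± 0.14 of the counts in WT and 0.949% ± 0.147 in KO (SD, n = 3).

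The genotypes did not overlap in 14 subunits, or 17.1% of the 82, with KO lower in all 14 and higher in 0. Over all tested genes, 18.1% were lower without overlap and 13.5% higher, so that the share of non-overlapping subunits was near the background. The 14 were Ndufa4l2, Ndufa5, Ndufb3, Ndufb5, Ndufs4, Ndufv2, Sdhb, Uqcrb, Uqcrh, Cox4i2, Cox6b2, Cox7a1, Cox8b and Atp5j. The number of subunits called rested on KO3: without it, 51 subunits were lower and 1, Ndufs1, was higher, against 16.2% and 16.9% of all tested genes, and the median log2 fold change was -0.55. Leaving out WT1, WT2, WT3, KO1 or KO2 gave 0 calls among the subunits, where 0.202%, 0.419%, 0.269%, 0.19% and 0.122% of all tested genes were lower and 2.12%, 3.22%, 2.17%, 1.98% and 1.41% higher. The median of the subunits then lay between -0.47 and -0.23, the last without KO2.

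Complex IV had the lowest median log2 fold change, with each library left out and with the trend on length removed as well. The medians were -0.37 for complex I, -0.28 for complex II, -0.38 for complex III, -0.47 for complex IV and -0.32 for complex V. The values overlapped widely between complexes, and members of a complex are not replicates, so no test of this order was made. Without the muscle isoforms Cox6a2, Cox7a1 and Cox8b the median of complex IV was -0.45. Subunits lower at an unadjusted p under 0.05 numbered 16 of 37 in complex I, 2 of 4 in complex II, 3 of 9 in complex III, 9 of 16 in complex IV and 1 of 16 in complex V, against 16% of all tested genes. Complex II had the highest median, but complex V did without WT1, without WT3 and with the trend on length removed. Single libraries moved these medians: complex I had -0.24 without KO2, complex II -0.15 without KO1, -0.14 without KO2 and -0.43 without KO3, and complex V -0.204 without KO1 and -0.199 without KO2.

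**Figure D2:**
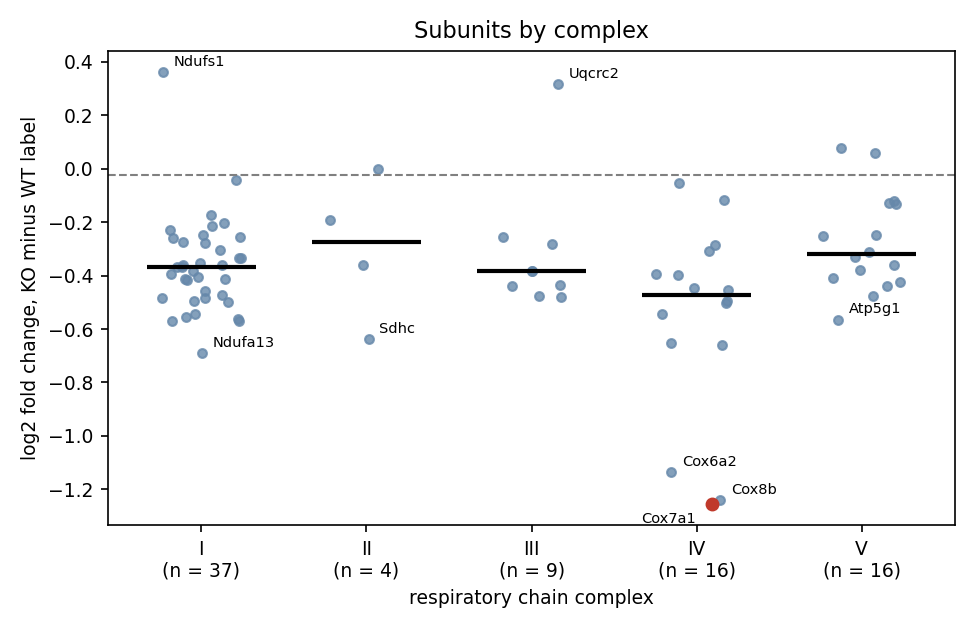
Log2 fold change (libraries labelled KO minus those labelled WT) of each subunit by complex. Points are subunits, black bars are medians per complex, the dashed line is the median of all tested genes (-0.02), and the red point is Cox7a1, the subunit with an adjusted p under 0.05; Cox6a2, Cox7a1 and Cox8b lie below -1.1.

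The complexes took similar shares of the subunit transcripts in the 6 libraries, with complex IV and complex V varying most. Complex I made up 25.7% to 27.4% of the summed subunit CPM over the 6 libraries, complex II 4.93% to 5.84% and complex III 11.8% to 12.3%. Complex IV made up 17.8%, 15.8% and 18.5% in WT1, WT2 and WT3, and 15.3%, 15.2% and 16.1% in KO1, KO2 and KO3. Complex V made up 38.5%, 40.5% and 37.4% in the WT libraries and 41.4%, 41.1% and 40.6% in the KO libraries. The share of complex IV thus overlapped between the genotypes at WT2 and KO3, while that of complex V was higher in each KO library than in each WT library, with KO3 and WT2 again next to each other.

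The muscle isoforms of cytochrome c oxidase had the lowest log2 fold changes of all 82 subunits. Cox7a1, the heart and skeletal muscle isoform of subunit VIIa (chromosome 7, 30184144 to 30186078), had 88.4, 52.8 and 82.7 CPM in WT1 to WT3 and 21.6, 28.7 and 43.5 in KO1 to KO3. Its KO values did not reach the lowest WT value. The mean was 74.6 ± 19.1 CPM in WT and 31.3 ± 11.1 in KO (SD, n = 3), which gave a log2 fold change of -1.25 ± 0.29 (SE) with an adjusted p of 0.0433 in edgeR's quasi-likelihood test. This call was lost when WT1, WT2, WT3, KO1 or KO2 was left out (adjusted p between 0.0538 and 0.202), while the log2 fold change stayed between -1.56 and -0.99.

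Cox8b, the muscle isoform of subunit VIII (chromosome 7, 140898945 to 140900446), had 94.2, 51.4 and 88.6 CPM in WT1 to WT3 and 24.4, 26.1 and 48.7 in KO1 to KO3. The genotypes did not overlap, but WT2 and KO3 differed by less than the spread within either genotype. The log2 fold change of -1.24 (standard error 0.32) had an adjusted p of 0.0605. Cox6a2, the muscle isoform of subunit VIa (chromosome 7, 128205435 to 128206387), had 219, 124 and 183 CPM in the WT libraries and 53.9, 58.9 and 126 in the KO libraries. KO3 lay just above WT2, and its log2 fold change of -1.14 ± 0.35 (SE) had an adjusted p of 0.0861. Cox6a2 overlaps Itgad on the opposite strand, and the sources used here do not say whether counting used strand. All 3 isoforms were called lower by edgeR's exact test, with adjusted p of 0.000183 for Cox7a1, 0.00078 for Cox8b and 0.00621 for Cox6a2, where 7.15% of all tested genes were called lower. DESeq2 also called the 3 isoforms lower, with adjusted p of 0.00151, 0.0046 and 0.0189, where it called 5.87% of all tested genes.

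The ubiquitous partners of these isoforms did not pass the test. Cox7a2 had 117, 87.8 and 130 CPM in the WT libraries and 82.8, 70.6 and 100.1 in the KO libraries (log2 fold change -0.40, adjusted p = 0.2). Cox8a had 135, 96.2 and 157 CPM in the WT libraries and 101, 91.4 and 126 in the KO libraries (log2 fold change -0.29, adjusted p = 0.374). Cox6a1 had 173, 128 and 196 CPM in the WT libraries and 146, 137 and 176 in the KO libraries (log2 fold change -0.12, adjusted p = 0.698). In each of these 3 genes the genotypes overlapped, with WT2 among the KO values or near them.

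**Figure D3:**
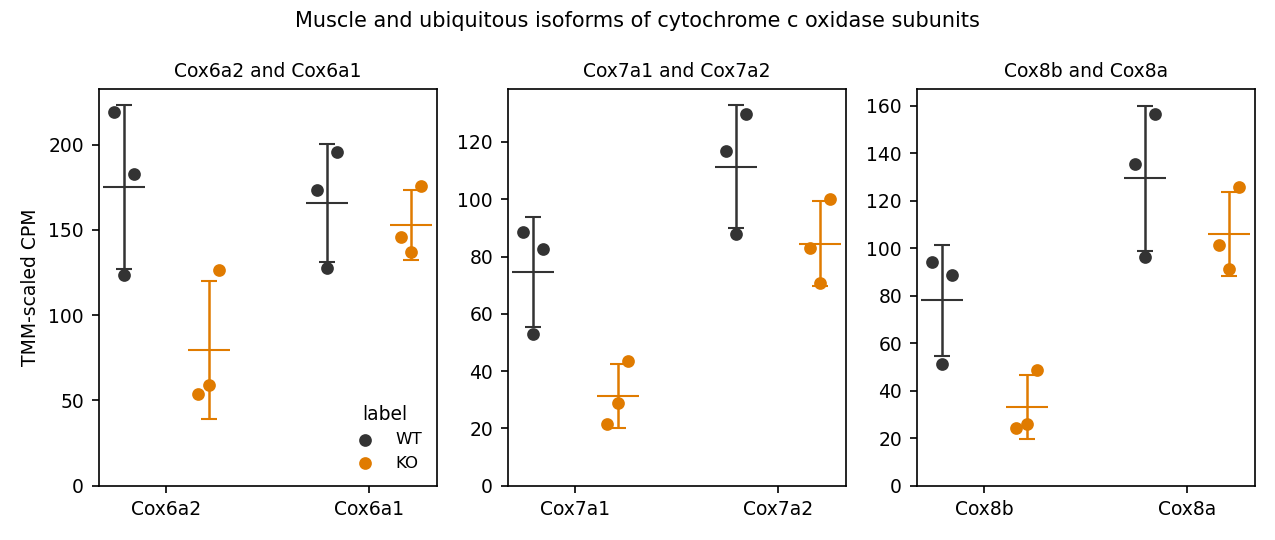
TMM-scaled CPM of the muscle isoforms Cox6a2, Cox7a1 and Cox8b, each beside its ubiquitous partner, with 1 point per library, a bar at the mean and error bars of 1 SD (n = 3). The muscle isoforms have means of 74.6 to 175 CPM in WT and 31.3 to 79.8 in KO, while the genotypes of each partner overlap.

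The ratio of isoforms within a library does not depend on how libraries are scaled. Per base of transcript, the ratio of Cox6a2 to Cox6a1 was 1.06, 0.813 and 0.784 in WT1 to WT3 and 0.311, 0.362 and 0.603 in KO1 to KO3. The ratio of Cox7a1 to Cox7a2 was 1.27, 1.01 and 1.07 in the WT libraries and 0.438, 0.683 and 0.728 in the KO libraries. The ratio of Cox8b to Cox8a was 1.06, 0.816 and 0.864 in the WT libraries and 0.368, 0.437 and 0.591 in the KO libraries. In the lip of WT mice the muscle isoform thus had about the transcript level of its partner, and in all 3 pairs each KO library lay below each WT library. The mean log2 ratio was lower in KO by -1.11 for Cox6a2, -0.88 for Cox7a1 and -0.99 for Cox8b, each with p = 0.1, the smallest p that a two-sided exact permutation test of 3 against 3 libraries allows, and 0.2 after Benjamini-Hochberg adjustment over the 8 pairs compared.

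Promoter windows of these pairs are shown because the isoforms of a pair differed in level between the genotypes. RefSeq windows of GRCm38.p6, from 250 bases before to 50 bases after the start of transcription, were given for 67 of the 82 subunits; Cox6a2 was not matched. Capitals mark motifs found on either strand, the letters CANNTG (E-box, the core of the sites that muscle regulatory factors bind), CCGGAAG (GABPA) or GCGCATGCG (NRF1). No motif shown overlaps another, except that the letters of NRF1 match Cox6a1 on both strands of the same stretch.
Cox7a1, chr7:30183921-30184220, plus strand: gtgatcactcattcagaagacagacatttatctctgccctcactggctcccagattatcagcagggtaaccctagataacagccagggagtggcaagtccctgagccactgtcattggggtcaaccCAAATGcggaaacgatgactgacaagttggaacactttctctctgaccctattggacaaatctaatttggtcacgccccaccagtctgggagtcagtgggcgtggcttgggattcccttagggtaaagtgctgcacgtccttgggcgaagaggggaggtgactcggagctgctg
Cox7a2, chr9:79759804-79760103, minus strand: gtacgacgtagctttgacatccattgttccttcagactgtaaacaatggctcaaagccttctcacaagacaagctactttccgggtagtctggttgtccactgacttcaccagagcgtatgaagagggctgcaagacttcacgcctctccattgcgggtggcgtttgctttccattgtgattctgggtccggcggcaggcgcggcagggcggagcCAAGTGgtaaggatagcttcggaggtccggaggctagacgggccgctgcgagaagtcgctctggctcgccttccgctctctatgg
Cox8b, chr7:140900397-140900696, minus strand: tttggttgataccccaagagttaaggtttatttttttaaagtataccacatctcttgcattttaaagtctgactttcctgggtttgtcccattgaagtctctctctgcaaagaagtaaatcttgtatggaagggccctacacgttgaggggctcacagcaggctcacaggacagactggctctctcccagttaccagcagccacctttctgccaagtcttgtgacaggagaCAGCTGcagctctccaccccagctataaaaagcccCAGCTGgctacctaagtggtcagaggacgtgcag
Cox8a, chr19:7217567-7217866, minus strand: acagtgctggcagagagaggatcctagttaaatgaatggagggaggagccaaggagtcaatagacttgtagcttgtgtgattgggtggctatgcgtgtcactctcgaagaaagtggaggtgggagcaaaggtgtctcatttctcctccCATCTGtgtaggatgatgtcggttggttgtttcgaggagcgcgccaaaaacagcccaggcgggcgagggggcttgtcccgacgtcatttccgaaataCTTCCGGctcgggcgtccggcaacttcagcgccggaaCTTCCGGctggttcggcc
Cox6a1, chr5:115348909-115349208, minus strand: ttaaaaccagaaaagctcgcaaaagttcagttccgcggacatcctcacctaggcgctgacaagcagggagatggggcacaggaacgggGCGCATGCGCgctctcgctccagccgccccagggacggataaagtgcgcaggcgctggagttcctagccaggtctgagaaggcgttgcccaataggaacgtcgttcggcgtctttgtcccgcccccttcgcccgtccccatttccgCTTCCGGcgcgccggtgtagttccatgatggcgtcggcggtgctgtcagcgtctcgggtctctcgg
The window of Cox8b held 2 E-boxes with the same letters, that of Cox7a1 held 1, and neither held a GABPA or NRF1 motif. The windows of Cox8a and Cox6a1 held 2 and 1 GABPA motifs, and that of Cox6a1 a stretch that matched NRF1 on both strands. The windows of Cox7a2 and Cox8a also held 1 E-box each. These matches describe letters, and binding was not measured.

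GABPA and NRF1 are known to act on many genes of the respiratory chain, and their motifs were more frequent in subunit windows than in windows at large. NRF1 motifs were in 11.1% of the 72 subunit windows, against 1.75% of all 32851 windows. GABPA motifs were in 22.2% against 8.86%. The letters AAGATGGC (YY1) were in 13.9% against 2.75%, and TCAAGGTCA (estrogen-related receptors) in 2.78% against 0.423%. E-boxes were about as frequent in subunit windows, at 68.1%, as in all windows, at 72.3%.

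Other pairs of isoforms differed less. Cox4i2, the isoform of subunit IV linked to low oxygen, and Cox6b2, the testis isoform of subunit VIb, were expressed near the bottom of the range of subunits. Cox6b2 had 3.92 to 4.04 CPM in the WT libraries and 2.51 to 2.53 in the KO libraries, without overlap (log2 fold change -0.66, standard error 0.18, adjusted p = 0.0692). Cox4i2 had 3.16, 2.72 and 3.37 CPM in the WT libraries and 1.33, 1.84 and 2.70 in the KO libraries (log2 fold change -0.65, adjusted p = 0.167). Per base of transcript, Cox6b2 had 0.0226 ± 0.0053 of the level of Cox6b1 in WT, and Cox4i2 had 0.0119 ± 0.0008 of that of Cox4i1 (SD, n = 3).

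Ndufa4l2, a paralogue of Ndufa4 that responds to low oxygen, had 35.9, 24.5 and 28.3 CPM in the WT libraries and 18.5, 18.9 and 22.5 in the KO libraries (log2 fold change -0.57, adjusted p = 0.0901). Ndufa4, now known to belong to complex IV, had 190 to 275 CPM in WT and 182 to 233 in KO (log2 fold change -0.17, adjusted p = 0.534). The log2 ratios of Cox4i2 to Cox4i1, Cox6b2 to Cox6b1 and Ndufa4l2 to Ndufa4 differed by -0.26, -0.27 and -0.39 with overlap between the genotypes (two-sided exact permutation test, p = 0.2, 0.4 and 0.2). The first was -0.0761 without KO1, and the second -0.0864 without WT2 and -0.114 without KO3.

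Atp5g1, Atp5g2 and Atp5g3 encode the same mature c subunit of the membrane ring of ATP synthase with different import sequences. Atp5g1 had 211, 131 and 199 CPM in the WT libraries and 104, 97.4 and 164 in the KO libraries (log2 fold change -0.56, adjusted p = 0.175). Atp5g2 (-0.31, adjusted p = 0.361) and Atp5g3 (-0.43, adjusted p = 0.217) also had log2 fold changes below 0. The log2 ratio of Atp5g1 to Atp5g2 was lower in each KO library than in each WT library, with a difference of -0.27 (two-sided exact permutation test, p = 0.1). That of Atp5g1 to Atp5g3 differed by -0.14 with overlap (p = 0.2 in the same exact test). Over the 8 pairs, the adjusted p of these 5 pairs lay between 0.2 and 0.4.

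Complex I is the largest complex, with a core that carries the flavin and iron-sulfur clusters and a shell of accessory subunits. Its 7 nuclear-encoded core subunits had a median log2 fold change of -0.30 and its 30 other subunits, which by symbol include Ndufa4 and Ndufa4l2, one of -0.39. Their median transcript lengths were 1623 and 747.5 bases. This order turned with the trend on length removed, at -0.22 for the core and -0.20 for the others. Ndufv1, which binds NADH, had 193, 166 and 197 CPM in the WT libraries and 134, 129 and 186 in the KO libraries (log2 fold change -0.30, adjusted p = 0.264). KO1 and KO2 were low and KO3 was above WT2.

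Within complex I the lowest log2 fold change was that of Ndufa13, an accessory subunit also known as GRIM-19, with 99.7, 72.2 and 108 CPM in the WT libraries and 49.8, 49.4 and 74.3 in the KO libraries (log2 fold change -0.69, standard error 0.22, adjusted p = 0.0892). Ndufa13 was lower by edgeR's exact test (adjusted p = 0.0289), and it shares bases with Yjefn3 and, on the opposite strand, Tssk6. Ndufa5, another accessory subunit, had 41.4 to 49.9 CPM in WT and 31.3 to 36.4 in KO, without overlap (log2 fold change -0.48, adjusted p = 0.0761). The other accessory subunits, grouped by symbol, ranged between -0.57 and -0.17, the last being Ndufa4, which belongs to complex IV. With Ndufa4 counted in complex IV, the median of complex IV was -0.45.

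Ndufs1, the core subunit with the most iron-sulfur clusters, was the exception in complex I. It had 70.1, 90.5 and 69.4 CPM in the WT libraries and 109.6, 108.7 and 77.1 in the KO libraries. WT2 lay above the other WT libraries and KO3 below the other KO libraries, the reverse of their places for most subunits. Its log2 fold change of 0.36 ± 0.18 (SE) had an adjusted p of 0.22, and without KO3 it was 0.51 with an adjusted p of 0.0304. Ndufs1 overlaps Eef1b2 on the opposite strand.

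Complex II, the succinate dehydrogenase, is encoded wholly in the nucleus. Sdha, the flavoprotein that oxidises succinate, had 222, 254 and 225 CPM in the WT libraries and 224, 231 and 247 in the KO libraries. Its values were mixed between the genotypes, and the log2 fold change was -0.00 with a standard error of 0.13. Sdhb, the iron-sulfur subunit, had 139, 131 and 131 CPM in the WT libraries and 93.3, 93.5 and 126 in the KO libraries (log2 fold change -0.36, adjusted p = 0.16). Sdhc, a membrane anchor, had 180, 120 and 167 CPM in the WT libraries and 82.9, 86.9 and 131 in the KO libraries (log2 fold change -0.64, standard error 0.22, adjusted p = 0.111). The 4 subunits of this single enzyme thus ranged from -0.64 to -0.00.

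In complex III, Uqcrfs1, the Rieske iron-sulfur protein, had 194, 140 and 175 CPM in the WT libraries and 116, 104 and 146 in the KO libraries (log2 fold change -0.48, adjusted p = 0.127). Cyc1, cytochrome c1, had 260, 169 and 251 CPM in the WT libraries and 142, 143 and 217 in the KO libraries (log2 fold change -0.44, adjusted p = 0.235). Both again had KO3 above WT2. The paired core proteins Uqcrc1 and Uqcrc2 went apart: Uqcrc1 had 285 to 378 CPM in WT and 248 to 359 in KO (log2 fold change -0.26, adjusted p = 0.39), and Uqcrc2 had 117, 188 and 119 CPM in the WT libraries and 191, 179 and 158 in the KO libraries (log2 fold change 0.32, standard error 0.20, adjusted p = 0.325). As for Ndufs1, WT2 was the highest WT library for Uqcrc2.

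Among the ubiquitous subunits of complex IV, Cox4i1 had 293, 219 and 294 CPM in the WT libraries and 180, 175 and 238 in the KO libraries (log2 fold change -0.45, adjusted p = 0.147). Cox5a had 70.3, 44.7 and 66.1 CPM in the WT libraries and 38.6, 38.5 and 50.7 in the KO libraries (log2 fold change -0.50, adjusted p = 0.147). Both genes had the order of libraries seen in the summed level. Of the genes assigned to complex IV by symbol alone, Cox7a2l differed least, with 137 to 147 CPM in WT and 129 to 144 in KO (log2 fold change -0.05, standard error 0.12).

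In complex V the catalytic F1 head had a median nearer to that of all genes than the rest of the complex did. Atp5b, its catalytic beta subunit, had 1354, 1215 and 1307 CPM in the WT libraries and 1096, 1060 and 1397 in the KO libraries (log2 fold change -0.13, adjusted p = 0.644). Atp5a1, the alpha subunit, had 1069, 980 and 948 CPM in the WT libraries and 883, 791 and 1063 in the KO libraries (log2 fold change -0.13, adjusted p = 0.62). KO3 was the highest KO library for both genes. The 5 F1 subunits had a median log2 fold change of -0.13 and the 11 others one of -0.36. Their median transcript lengths were 1170.5 and 718.5 bases, and with the trend on length removed the medians were close, at -0.10 and -0.13. Atp5s, which was assigned to complex V by symbol alone, had 4.86 to 5.63 CPM in WT and 4.94 to 6.15 in KO. Its log2 fold change of 0.08 was the highest among the genes so assigned.

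Levels can be compared between genes per length of transcript. In WT, the highest were Atp5b at 674 ± 36.9 CPM per kb of its principal transcript (SD, n = 3), Atp5g3 at 491 ± 94.7, Ndufa4 at 451 ± 83.2 and Atp5a1 at 404 ± 25.5. The SDs of the last 3 overlapped with each other, while Atp5b stood apart. Cox6a2 ranked 15, Cox8b 19 and Cox7a1 24 of the 82 subunits on this scale, and Cox4i2 ranked 80. Many subunit genes have processed pseudogenes, and reads that also match one are left out when reads are assigned uniquely, so that single levels may be too low.

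Markers of skeletal muscle moved with the subunits. Of 20 listed muscle genes 19 were tested, all with log2 fold changes below 0 and a median of -1.01. The quasi-likelihood test called 4 lower (Cacng1, Pvalb, Tnni2 and Tnnt3), against 2.09% of all tested genes. The exact test called 15 of them lower and DESeq2 14, against 7.15% and 5.87% of all tested genes. At an unadjusted p under 0.05, 18 were lower, against 16% of all tested genes. Without overlap between the genotypes, 18 were lower, against 18.1%. Their summed level was 17441 to 23058 CPM in WT and 8270 to 13882 in KO, highest in KO3 among the KO libraries and lowest in WT2 among the WT libraries, as for the subunits. This order was not particular to muscle. The summed dermal fibroblast markers had 6673, 6577 and 8526 CPM in WT1 to WT3 and 2879, 3647 and 6878 in KO1 to KO3. The summed white and brown adipocyte markers also had WT2 lowest and KO3 highest within their genotypes. For macrophage, erythroid and endothelial markers KO3 was again the highest KO library, but WT1 was the lowest WT library. Of 12 genes of slow or oxidative fibres 8 were tested, with a median of -1.20, and 3 fell (Csrp3, Fabp3 and Myoz2). The exact test called 7 of them lower and DESeq2 6, and 7 were lower at an unadjusted p under 0.05 and 6 without overlap. The shares of all tested genes to set beside these counts are those given for the muscle genes. The slow-fibre markers Myh7, Myl2, Myl3 and Tnnc1 were at or near 0 in every library. Of these 7 calls, that of Cacng1 held with any library left out, those of Pvalb, Tnni2, Tnnt3 and Myoz2 were lost without WT1, WT2, WT3, KO1 or KO2 (adjusted p up to 0.225), that of Csrp3 without WT1, WT2, KO1 or KO2 (up to 0.105) and that of Fabp3 without KO1 or KO2 (up to 0.101). The summed level of 10 keratinocyte markers was higher in each KO library, at 41710 to 55224 CPM, than in each WT library, at 29138 to 32267. Their median log2 fold change was 0.27, with 7 above 0 and 3 below 0, the lowest at -0.34. All KO libraries lay above all WT libraries in 5 of the 10 and below them in 1, against 13.5% and 18.1% of all tested genes. The quasi-likelihood test called 0 of them. At an unadjusted p under 0.05, 3 were higher, against 13.5% of all tested genes. The exact test and DESeq2 each called 3 higher, against 7.76% and 9.62% of all tested genes.

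Relative to the summed muscle markers, the muscle isoforms overlapped between the genotypes. Per 1000 CPM of muscle markers, Cox7a1 had 3.84, 3.03 and 3.85 CPM in the WT libraries and 2.62, 3.22 and 3.13 in the KO libraries. Cox8b had 3.72 ± 0.67 in WT and 3.13 ± 0.33 in KO, and Cox6a2 had 8.37 ± 1.21 and 7.41 ± 1.47 (SD, n = 3). The part of a change in muscle content in the level of the other subunits was not tested. The summed level of the 3 muscle isoforms was 30.5%, 34.7% and 66.6% of the WT mean in KO1 to KO3, that of the muscle markers 40.0%, 43.2% and 67.2%, and that of all 82 subunits 75.3%, 72.5% and 95.5%.

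**Figure D4:**
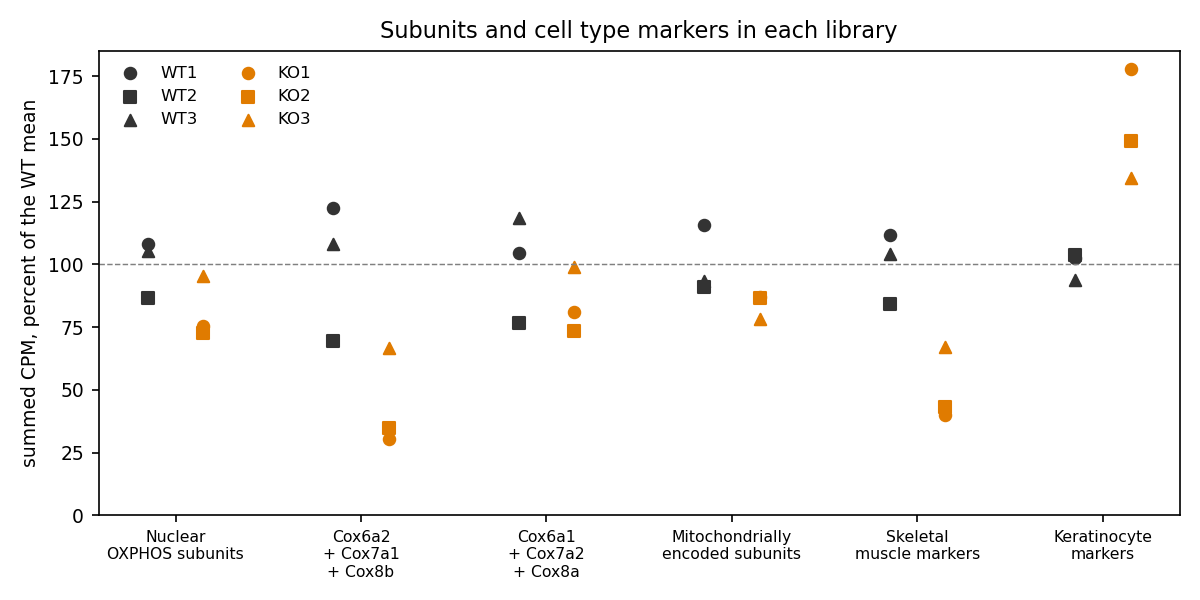
Summed CPM of subunits and of cell type markers in each library, as a percent of the mean of the 3 WT libraries (dashed line). Black points are WT and orange points KO libraries, with the marker giving the library number; the KO libraries lie at 30.5% to 66.6% for the muscle isoforms, at 72.5% to 95.5% for all nuclear subunits and at 134% to 178% for keratinocyte markers.

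Most subunit transcripts are short, and short transcripts in general had lower log2 fold changes. The principal transcripts of the subunits were 360 to 3171 bases long, with a median of 772.5, against 2908 for the 14036 tested genes with a length. The 941 tested genes under 1000 bases had a median log2 fold change of -0.18, with 68.1% below 0, and the 52 subunits among them had a median of -0.41, with 52 below 0. The 13095 genes of 1000 bases and over had a median of -0.01, with 51.1% below 0, and the 30 subunits among them had one of -0.27, with 26 below 0. In both classes the median of the subunits was thus lower than that of all genes.

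Over the 82 subunits, Spearman's rho of log2 fold change and length was 0.35, a correlation across genes of the same 6 libraries, and 0.14 over all tested genes with a length. With the trend on length removed, an alternative added after the data had been seen, the median of the subunits was -0.18, 72 of 82 lay below 0, and Cox7a1 (log2 fold change -0.96, adjusted p = 0.0331) and Cox8b (-0.94, adjusted p = 0.0464) were called lower, against 1.76% of all tested genes. The deviation of genes under 1000 bases followed the libraries as the subunits did, with medians of 0.06, -0.20 and 0.14 in WT1 to WT3 and -0.21, -0.28 and -0.05 in KO1 to KO3, on the log2 scale relative to the WT mean.

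**Figure D5:**
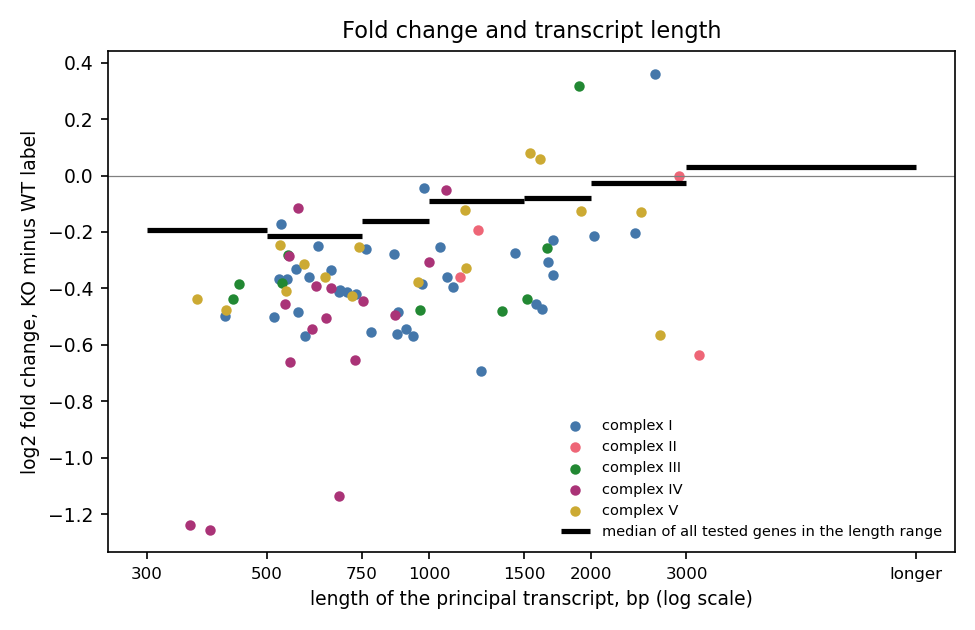
Log2 fold change (libraries labelled KO minus those labelled WT) of the 82 subunits against the length of the principal transcript in bases, on a log axis, coloured by complex. Black bars are the medians of all tested genes in each range of length, the last being open-ended; they run from -0.21 to 0.03, and most subunits lie below them.

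The mitochondrial genome encodes 13 further subunits, the catalytic centres of complexes III and IV among them. Of these 12 were tested, and all 12 had log2 fold changes below 0 (median -0.26). None was called by the quasi-likelihood test, the exact test or DESeq2, which called 2.09%, 7.15% and 5.87% of all tested genes lower. At an unadjusted p under 0.05, 3 were lower, against 16% of all tested genes. Their summed level was 54750, 43096 and 44318 CPM in WT1 to WT3 and 41231, 41124 and 37055 in KO1 to KO3, without overlap. Here KO3 was the lowest KO library, unlike for the nuclear-encoded subunits. The ratio of mitochondrially to nuclear-encoded subunit counts was 4.06 ± 0.40 in WT and 4.28 ± 0.84 in KO (SD, n = 3). mt-Nd3, a complex I subunit, had the lowest log2 fold change at -0.64 (adjusted p = 0.107), and mt-Nd4l held at most 2 counts in any library.

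The proteins that build the complexes had values closer to those of all genes. Of 49 listed assembly factors 41 were tested, and the median log2 fold change was -0.12. The quasi-likelihood and exact tests called 0 of them. DESeq2 called 1 higher, against 9.62% of all tested genes, and 1 was higher at an unadjusted p under 0.05, against 13.5%. Lrpprc, which stabilises mitochondrial transcripts, had the lowest p of the list, with 36.0, 48.1 and 47.2 CPM in the WT libraries and 74.8, 69.5 and 52.1 in the KO libraries (log2 fold change 0.58, adjusted p = 0.09). Of 78 mitochondrial ribosomal proteins 75 were tested, with a median of -0.05 and 0 called by these 3 tests. At an unadjusted p under 0.05, 2 were lower and 1 higher, against 16% and 13.5% of all tested genes. Of 21 regulators of mitochondrial genes 19 were tested, with a median of -0.03. Of these 10 lay below 0 and 9 above 0, from -1.57 to 0.68. Their summed level was 605 to 653 CPM in WT and 668 to 716 in KO. The quasi-likelihood test called 0 of them, the exact test 2 lower and DESeq2 1 lower, against 7.15% and 5.87% of all tested genes for the last 2 tests. At an unadjusted p under 0.05, 4 were lower and 2 higher, against 16% and 13.5%. Among the regulators below 0, Ppargc1a, the coactivator of mitochondrial biogenesis, had a log2 fold change of -0.52 (adjusted p = 0.123). Esrrg, an estrogen-related receptor of oxidative muscle, had one of -0.79 (adjusted p = 0.0653).

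Single genes that feed or bypass the chain did pass the test. Of 22 genes of the citric acid cycle and pyruvate dehydrogenase 1 fell: Pdk4, the kinase that shuts off pyruvate dehydrogenase during fasting, had 167, 39.9 and 133 CPM in the WT libraries and 26.1, 18.5 and 36.4 in the KO libraries (log2 fold change -2.07, adjusted p = 0.0463). This call was lost without WT1, WT3, KO1 or KO2 (adjusted p up to 0.203). The list's median was -0.18, with 18 of 22 below 0, and 8 were lower without overlap, against 18.1% of all tested genes. At an unadjusted p under 0.05, 5 were lower and 0 higher, against 16% and 13.5%. The exact test and DESeq2 each called 2 lower, against 7.15% and 5.87%, where the quasi-likelihood test called 2.09% of all tested genes lower. The list's summed level was 3373 to 3965 CPM in WT and 2543 to 3277 in KO. Of 14 genes of electron carriage, ATP export and uncoupling 12 were tested and 1 fell: Ucp3, the uncoupling protein of skeletal muscle, had 35.6, 17.9 and 28.1 CPM in the WT libraries and 9.31, 6.28 and 10.2 in the KO libraries (log2 fold change -1.67, adjusted p = 0.0147). Without WT1, WT3, KO1 or KO2 its adjusted p was up to 0.0896. Of these 12 genes, the exact test and DESeq2 each called 2 lower, against 7.15% and 5.87% of all tested genes, and DESeq2 called 1 higher, against 9.62%. At an unadjusted p under 0.05, 4 were lower and 1 higher, against 16% and 13.5%. Slc25a4, the ADP/ATP carrier of heart and muscle, had a log2 fold change of -0.87 (adjusted p = 0.0564), and Slc25a5, its ubiquitous counterpart, one of 0.22 (adjusted p = 0.336). Of 16 genes of fatty acid beta-oxidation 15 were tested, with 8 log2 fold changes below 0 and 7 above 0. None was called by the quasi-likelihood test, the exact test or DESeq2. At an unadjusted p under 0.05, 2 were lower and 2 higher, against 16% and 13.5% of all tested genes.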

How the data were processed

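The deposited values are whole-number counts of reads per gene symbol in 6 paired-end mRNA libraries. Alignment by the authors was to GRCm38 with TopHat2 2.0.8 and Bowtie2 2.1.0, followed by unique assignment to genes with HTSeq-count. Whether strand was used in counting is not given in the sources used here, and 29 of the 82 subunits overlap a gene on the opposite strand. All 6 columns were used.

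The genes that reached 1 CPM in 3 or more libraries (15009, holding 99.8% of the counts of each library) were tested in R 4.3.3 with edgeR 4.0.16: TMM factors, glmQLFit (legacy=FALSE), glmQLFTest and Benjamini-Hochberg adjustment over all tested genes, at a threshold of 0.05. CPM values are TMM-scaled and given as mean ± SD over 3 mice per genotype. Standard errors are those of the log2 fold changes. Isoform ratios were compared with scipy 1.17.1 in Python 3.11.15, and figures drawn with matplotlib 3.10.9. Positions and principal transcript lengths come from GENCODE annotation of GRCm38.

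Alternatives were edgeR's exact test, DESeq2 1.42.0, limma-voom (limma 3.58.1), the older quasi-likelihood fit, no scaling beyond library size, DESeq2's size factors, upper-quartile factors, no filter, at least 10 counts in every library, a replicate block, an adjusted p under 0.1 and each library left out. A lowess fit on transcript length (span 0.3) was added after the data had been seen.

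The members, gene lists and tests were chosen with earlier results of these data known. Genes were named by this rule: called members, both genes of each isoform pair, the highest and lowest log2 fold change in each complex, core subunits (1 of which is not reported here), and from other lists the called genes and up to 4 with the lowest p. The subunits named for non-overlap, Ndufa5, Cox7a2l, Slc25a5, Ppargc1a and the markers at 0 were named with their values known. Of the isoform pairs fixed for comparison, Cox7b2/Cox7b was not analysed here.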

Additional observations from a re-analysis of the deposited data

How the results depend on the processing

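The median log2 fold changes of all subunits and of complexes I to IV stayed below 0 and within 1 SD of the replicates of the main value under every alternative, and the isoform ratios kept their direction. With the length trend removed, the medians were -0.20, -0.16, -0.15, -0.26 and -0.12 for complexes I to V. With 1 library left out they ranged from -0.55 to -0.24, from -0.43 to -0.14, from -0.56 to -0.27, from -0.64 to -0.33 and from -0.47 to -0.20. The number of subunits called lower was 4 by edgeR's exact test, 3 by DESeq2, 7 at an adjusted p under 0.1 and 2 with the length trend removed, and it ranged from 0 to 51 with 1 library left out. The number called higher ranged from 0 to 1 with 1 library left out. Without KO3, the KO library whose summed subunit level lay closest to the WT libraries, 51 were lower and 1 higher. The cause of these differences was not tested.

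The replicate numbers were entered as a block, although nothing in the labels pairs the mice and the deviations of same-numbered libraries correlated at -0.19, 0.29 and 0.31. With this block, 2 subunits were called lower (Cox7a1 and Cox8b), and 217 genes of the whole table were lower and 580 higher.

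Sdha, with a log2 fold change near 0, turned to 0.042 by DESeq2, 0.00057 by limma-voom, 0.027 with DESeq2's size factors, 0.051 without a filter, 0.0025 with at least 10 counts in every library, 0.000735 with the replicate block and 0.0035 with the length trend removed, and ranged from -0.0397 to 0.121 with 1 library left out. With 1 library left out, Cox6a1 ranged from -0.22 to 0.018, Atp5a1 from -0.25 to 0.019, Atp5b from -0.26 to 0.0045 and Cox7a2l from -0.083 to 0.052. With the length trend removed, the log2 fold change was 0.13 for Cox6a1, 0.087 for Ndufa4 and 0.083 for Cox7a2l. Cox8c and Atp5l2 held at most 3 counts in any library and could not be compared.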

Other observations

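Brown fat also uses Cox7a1 and Cox8b, and its markers were measured in these libraries. Ucp1, the uncoupling protein that defines brown fat, held 12, 7 and 6 counts in WT1 to WT3 and 27, 39 and 16 in KO1 to KO3, too few to enter the test. Of 8 listed genes 7 were tested, with a median log2 fold change of -0.52, 5 below 0 and 2 above 0. All KO libraries lay below all WT libraries in 5 of the 7 and above them in 1, against 18.1% and 13.5% of all tested genes. At an unadjusted p under 0.05, 4 were lower and 1 higher, against 16% and 13.5% of all tested genes. The summed level of the 8 genes was 598 to 786 CPM in WT and 441 to 567 in KO. Dio2, a deiodinase that activates thyroid hormone, had 11.0 ± 1.0 CPM in WT and 51.3 ± 13.5 in KO (SD, n = 3; log2 fold change 2.23, adjusted p = 0.000893 in edgeR's quasi-likelihood test), higher in 3 of 3 KO libraries.

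Markers of other cell types of the lip had medians nearer to 0 than those of muscle. White adipocyte markers had a median log2 fold change of -0.75 over 8 genes, all below 0. The quasi-likelihood test called 1 of them lower, the exact test 3 and DESeq2 2, against 2.09%, 7.15% and 5.87% of all tested genes. At an unadjusted p under 0.05, 4 were lower, against 16%. Fabp4, the fatty acid binding protein of fat cells, fell from 64.3 ± 3.4 to 41.0 ± 4.2 CPM (log2 fold change -0.65, adjusted p = 0.0303), a call lost without WT1, WT2, WT3, KO1 or KO2 (adjusted p up to 0.153). The medians were -0.37 over 8 dermal fibroblast markers, -0.40 over 7 macrophage markers, -0.66 over 5 erythroid markers and -0.22 over 6 endothelial markers. None of these 26 genes was called by the quasi-likelihood test, the exact test or DESeq2. At an unadjusted p under 0.05, 1, 3, 0 and 1 of them were lower, against 16% of all tested genes.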
